A study of Homo sapiens with 9 samples.

Results

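The myeloma translocation targets MAF, FGFR3 and NSD2 and the secreted WNT antagonists DKK1 and FRZB were followed through 6 human cell lines. They were read at every probe set of the array whose platform symbol was that gene alone, 5 of the 11963 genes named on the array. This gave 11 of the 22215 probe sets tested, 3 for MAF, 2 for FGFR3, 3 for NSD2, 1 for DKK1 and 2 for FRZB. Gene expression was measured on 9 Affymetrix HG-U133A arrays. The B-cell group held Namalwa, a Burkitt lymphoma line, and SU-DHL4 and SU-DHL6, germinal centre type large B-cell lymphoma lines, each on 2 arrays. The plasma cell myeloma (PCM) group held the lines L363, U266 and LP1, each on 1 array. All lines were grown in RPMI 1640 with 10% fetal bovine serum. The titles of the B-cell arrays say untreated, and those of the PCM arrays name no treatment. The Namalwa arrays came from earlier work of the same group, and the other 7 arrays were newly made. A cell line is 1 clone-like source grown apart from the bone marrow and its stroma, so each group rested on 3 lines, the B-cell group on lines of more than 1 disease, and every value of a single PCM line rested on 1 array.

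Translocations in plasma cell myeloma place an oncogene beside the immunoglobulin heavy chain locus. MAF, on chromosome 16, is a basic leucine zipper transcription factor that binds MAF recognition elements. FGFR3, a receptor tyrosine kinase for fibroblast growth factors, and NSD2, a methyltransferase that dimethylates lysine 36 of histone H3, lie close together on the short arm of chromosome 4, and one translocation can join both to the heavy chain locus. LP-1 is known as a line with that translocation, in which NSD2 is the gene deregulated in all cases and FGFR3 in most. DKK1 binds the WNT co-receptors LRP5 and LRP6, and FRZB, a secreted frizzled-related protein, binds WNT ligands. Both block WNT signalling outside the cell and are known in myeloma for their link to bone lesions.

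LP1 was the line that carried MAF and FGFR3, 15.2-fold and 4.42-fold above the next line at their leading probe sets. NSD2 lay above the array medians in all 6 lines and was carried by no single line, since LP1 and SU-DHL4 lay at like levels. DKK1 and FRZB varied by no more than 0.59 log2 units over the 6 lines. The data thus showed a single carrying line for MAF and FGFR3 alone among the 5 genes.

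The arrays were alike in overall level, with medians of 6.95 to 7.04 on the log2 scale. B-cell markers had mean levels of 10.59 to 11.16 in the B-cell lines and 6.82 to 7.28 in the PCM lines, and plasma cell markers 7.19 to 8.31 and 10.69 to 11.03. No measured marker of T cells or myeloid cells varied by more than 0.44 between lines, while 2 of 6 fibroblast or stromal markers stood apart in SU-DHL4, DCN at 10.65 against at most 8.19 and THY1 at 9.45 against at most 7.23. By the SD of their log2 differences, the arrays labelled L363 and U266 lay within the spread of duplicates of 1 line. That SD was 0.320, against 0.217, 0.236 and 0.347 for the duplicates of Namalwa, SU-DHL4 and SU-DHL6. Probe sets more than 4-fold apart numbered 40 between L363 and U266, against 1, 2 and 35 in those duplicates, in that order. LP1 stood at an SD of 0.550 from L363 and 0.547 from U266, with 252 and 276 such probe sets. U266 is known for an activated CCND1 gene, yet on the array labelled U266 CCND1 (208711_s_at) stood at 6.02, within the 5.82 to 6.19 of the other lines. IL6, which U266 cells are known to make, stood at 5.14 against 5.11 to 5.24. Whether these arrays come from independent lines was not tested, and the main results that rest on them are also given with both averaged as 1 line. For the differences of single lines, and for PCM without LP1, that setting was chosen after these values were seen.

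The promoters of the 4 genes whose levels are read most closely are shown for their base composition, 300 bases around the RefSeq start on GRCh38.p14, most of them before it, 5′ to 3′ along the gene's strand. Capitals mark TATAAA, the TATA box core, and CTTTGA or its reverse complement, a match to the binding motif of TCF and LEF, the DNA-binding partners of beta-catenin.
MAF: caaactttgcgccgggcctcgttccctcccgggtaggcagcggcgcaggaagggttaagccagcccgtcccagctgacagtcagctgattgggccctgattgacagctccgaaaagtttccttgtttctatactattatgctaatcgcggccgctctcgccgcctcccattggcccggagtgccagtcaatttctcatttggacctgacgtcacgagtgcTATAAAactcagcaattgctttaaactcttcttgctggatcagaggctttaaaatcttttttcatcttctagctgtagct
FGFR3: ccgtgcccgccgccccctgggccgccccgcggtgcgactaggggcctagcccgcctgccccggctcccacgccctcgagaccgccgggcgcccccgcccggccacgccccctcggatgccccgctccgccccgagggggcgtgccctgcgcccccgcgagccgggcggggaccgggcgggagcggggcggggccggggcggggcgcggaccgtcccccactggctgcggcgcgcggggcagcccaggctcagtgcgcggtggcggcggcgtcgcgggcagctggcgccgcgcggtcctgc
NSD2: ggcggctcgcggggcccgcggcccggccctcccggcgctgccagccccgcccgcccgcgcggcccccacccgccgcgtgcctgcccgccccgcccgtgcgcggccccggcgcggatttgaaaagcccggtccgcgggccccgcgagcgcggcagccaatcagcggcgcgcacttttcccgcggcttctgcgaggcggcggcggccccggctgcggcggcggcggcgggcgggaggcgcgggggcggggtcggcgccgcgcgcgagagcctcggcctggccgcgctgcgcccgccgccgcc
DKK1: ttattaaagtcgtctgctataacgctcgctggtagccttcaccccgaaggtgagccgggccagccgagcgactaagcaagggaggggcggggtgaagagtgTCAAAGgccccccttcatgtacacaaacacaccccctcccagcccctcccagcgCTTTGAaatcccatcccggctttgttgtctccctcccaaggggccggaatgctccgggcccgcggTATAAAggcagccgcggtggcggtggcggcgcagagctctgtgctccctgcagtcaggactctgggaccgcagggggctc

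These windows lie at chr16:79600688-79600987 on the minus strand for MAF and, on the plus strand, at chr4:1793043-1793342 for FGFR3, chr4:1871143-1871442 for NSD2 and chr10:52314031-52314330 for DKK1. FGFR3 and NSD2 share very GC-rich starts, 86.3% and 86.7% GC with 51 and 63 CpG dinucleotides, a GC share that 0.1% of 34796 promoters reached. The MAF window held 51.7% GC and the DKK1 window 63.7%, near the median of 58.7%. Searched on both strands, TATAAA occurred 1 time each in the MAF and DKK1 windows and in 11.6% of all promoters. CTTTGA occurred 2 times in the DKK1 window and in 12.9% of all promoters. TGCTGAC, part of the MAF recognition element, was in 4.14% of all promoters, and TGACTCA, the AP-1 core, in 4.96%, and neither occurred in the windows of the 5 genes. A match describes the letters only and is not evidence of binding.

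MAF was at a like low level in 5 lines and high in LP1. At its leading probe set, 206363_at (that with the greatest mean level of its probe sets), the Namalwa arrays gave 5.11 and 5.20, the SU-DHL4 arrays 5.14 and 5.10, the SU-DHL6 arrays 5.20 and 5.12, L363 5.29, the array labelled U266 5.30 and LP1 9.23 (log2). LP1 stood far above a group of 8 arrays that spanned only 5.10 to 5.30. The lead of LP1 over the next line, U266, was 3.92, or 15.2-fold, with a 95% interval of 3.62 to 4.23 from the line model. The pooled SD of single arrays within duplicates was 0.049. Of all probe sets, 0.0315% had a lead of at least that size. No other pair of neighbours in the order of lines had an interval that excluded 0.

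The other probe sets for MAF ordered LP1 first as well, but with unequal sizes. Probe set 209348_s_at read 4.48 and 4.58 in Namalwa, 4.50 and 4.58 in SU-DHL4, 4.48 and 4.58 in SU-DHL6, 4.60 in L363, 4.63 in U266 and 8.28 in LP1. Its lead was 3.64, or 12.5-fold (95% interval 3.31 to 3.98). Probe set 209347_s_at read 4.63 and 4.57 in Namalwa, 4.58 and 4.81 in SU-DHL4, 4.69 and 4.78 in SU-DHL6, 4.69 in L363, 4.64 in U266 and 5.61 in LP1. Its lead was 0.88, or 1.84-fold (0.54 to 1.21), a size that 3.84% of all probe sets reached. The 3 profiles correlated with r of 0.991 or more over the 6 lines, a description that rests on LP1.

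FGFR3 was also highest in LP1, with a lead beyond the interval at 1 of its 2 probe sets. At 204379_s_at, the leading probe set, Namalwa gave 6.02 and 6.06, SU-DHL4 5.96 and 5.93, SU-DHL6 6.11 and 6.19, L363 6.32, U266 6.34 and LP1 8.48. LP1 stood above 8 arrays between 5.93 and 6.34. The lead over U266 was 2.14, or 4.42-fold (95% interval 1.85 to 2.44), and the pooled SD of single arrays within duplicates was 0.037. A lead of that size occurred in 0.549% of all probe sets, and no other neighbours in the order differed beyond their interval.

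The second FGFR3 probe set did not separate LP1. At 204380_s_at Namalwa read 5.19 and 5.54, SU-DHL4 5.49 and 5.09, SU-DHL6 5.62 and 5.50, L363 5.72, U266 5.61 and LP1 5.94. LP1 was again the highest, but by 0.23 (95% interval -0.41 to 0.86), and the pooled SD of single arrays within duplicates was 0.219. The probe sets thus disagreed on size, and which part of the transcripts each one reads was not analysed here.

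**Figure D1:**
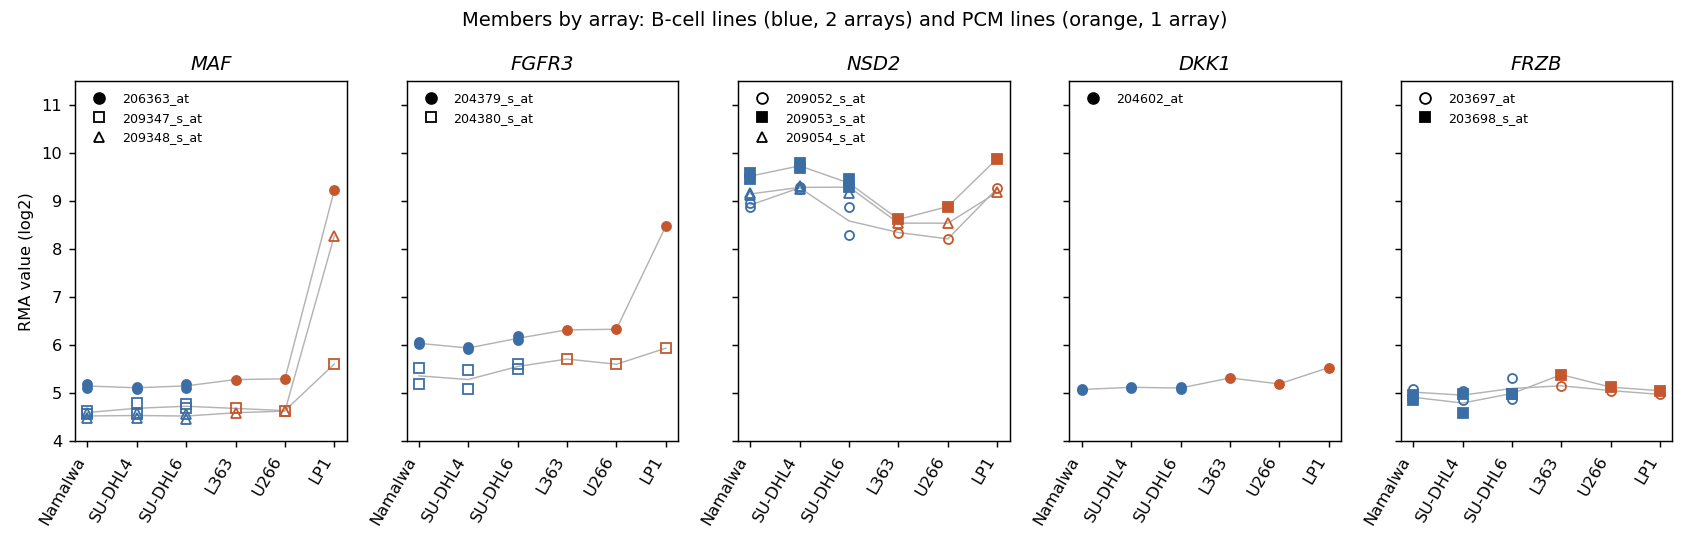
Deposited log2 RMA value (vertical axis) of each array, by cell line (horizontal axis), in 1 panel each for MAF, FGFR3, NSD2, DKK1 and FRZB, with 1 symbol per probe set, filled for the leading one, blue for B-cell and orange for PCM lines, and grey lines joining the line means. LP1 stands apart at 206363_at and 209348_s_at of MAF and at 204379_s_at of FGFR3, while NSD2 is above 8 in every line and DKK1 and FRZB vary little.

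NSD2 lay above the array medians in every line. At 209053_s_at, its leading probe set, Namalwa gave 9.58 and 9.46, SU-DHL4 9.69 and 9.79, SU-DHL6 9.46 and 9.29, L363 8.62, U266 8.89 and LP1 9.89. LP1 was the highest, and L363 and U266 were the lowest. LP1 exceeded SU-DHL4 by 0.15, or 1.11-fold, with a 95% interval of -0.17 to 0.47, a lead that 45.0% of all probe sets reached.

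Against the other PCM lines, NSD2 was higher in LP1. At 209053_s_at LP1 exceeded L363 by 1.27 (95% interval 0.89 to 1.64) and U266 by 1.0 (0.63 to 1.37). With L363 and U266 averaged as 1 line, LP1 exceeded them by 1.13 (0.76 to 1.5). It also exceeded Namalwa by 0.36 (0.04 to 0.69) and SU-DHL6 by 0.51 (0.19 to 0.83). The only neighbours in the order with an interval above 0 were SU-DHL6 and U266, which differed by 0.49 (0.17 to 0.81).

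The remaining NSD2 probe sets put a B-cell line first. Probe set 209052_s_at read 8.96 and 8.88 in Namalwa, 9.30 and 9.26 in SU-DHL4, 8.88 and 8.29 in SU-DHL6, 8.35 in L363, 8.22 in U266 and 9.27 in LP1, so that SU-DHL4 and LP1 differed by 0.01. Probe set 209054_s_at read 9.16 and 9.14 in Namalwa, 9.25 and 9.32 in SU-DHL4, 9.17 and 9.42 in SU-DHL6, 8.54 in both L363 and U266, and 9.18 in LP1. At both probe sets LP1 exceeded L363, by 0.92 (95% interval 0.23 to 1.60) and 0.64 (0.25 to 1.03), and U266, by 1.05 (0.37 to 1.73) and 0.64 (0.25 to 1.04). Against the B-cell lines the differences of LP1 held less well. From Namalwa they were 0.34 (-0.25 to 0.94) and 0.03 (-0.31 to 0.37), and from SU-DHL6 0.68 (0.08 to 1.27) and -0.11 (-0.45 to 0.23).

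DKK1 lay below the lower quartile of every array (5.72 to 5.89) and varied little. Its single probe set, 204602_at, gave 5.09 and 5.08 in Namalwa, 5.11 and 5.14 in SU-DHL4, 5.08 and 5.14 in SU-DHL6, 5.32 in L363, 5.20 in U266 and 5.54 in LP1. LP1 was the highest and the PCM arrays lay above the B-cell arrays, within a range of 0.46 that 57.1% of all probe sets reached. The lead of LP1 over L363 was 0.22, or 1.16-fold (95% interval -0.07 to 0.51). LP1 exceeded U266 by 0.34 (0.05 to 0.63) and the B-cell lines by 0.41 to 0.46. The line model gave these differences an SE of 0.12 against U266 and 0.10 against a B-cell line. The pooled SD of single arrays within duplicates was smaller, at 0.026.

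FRZB also lay below the lower quartile of every array, at both probe sets, and was carried by no single line. At 203698_s_at, its leading probe set, Namalwa read 4.86 and 4.98, SU-DHL4 5.00 and 4.60, SU-DHL6 5.00 and 5.00, L363 5.39, U266 5.13 and LP1 5.06. L363 was the highest, by 0.26 over U266, which 26.8% of all probe sets reached. L363 exceeded SU-DHL4 by 0.59 (95% interval 0.14 to 1.04) and Namalwa by 0.47 (0.02 to 0.92), and the range over lines of 0.59 was one that 45.4% of all probe sets reached. At 203697_at Namalwa read 5.09 and 4.97, SU-DHL4 4.87 and 5.06, SU-DHL6 4.88 and 5.32, L363 5.16, U266 5.06 and LP1 4.98. L363 led by 0.06, and the range over lines was 0.19, which 88.8% of all probe sets reached. No neighbouring lines differed beyond their interval at either probe set.

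LP1 was the highest line at 7 of the 11 probe sets, 63.6%, where LP1 was the highest at 14.7% of all probe sets. The genes were chosen with earlier results of these data known, and probe sets of the same gene are not independent. The shares given here therefore describe the 11 probe sets and are not evidence of an excess. With L363 and U266 kept apart, the 95% interval of the lead of LP1 included 0 at 204380_s_at (FGFR3), 209053_s_at (NSD2) and 204602_at (DKK1). A lead of at least 2 log2 units, or 4-fold, was seen at 3 of the 11, all of them in LP1, against 0.666% of all probe sets for any line and 0.311% for LP1. All 3 were probe sets of MAF and FGFR3, and the count stayed at 3 with L363 and U266 averaged as 1 line. Then the lead was 3.93 for MAF, 2.15 for FGFR3 and 0.28 for DKK1, the last with a 95% interval of 0.01 to 0.54.

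**Figure D2:**
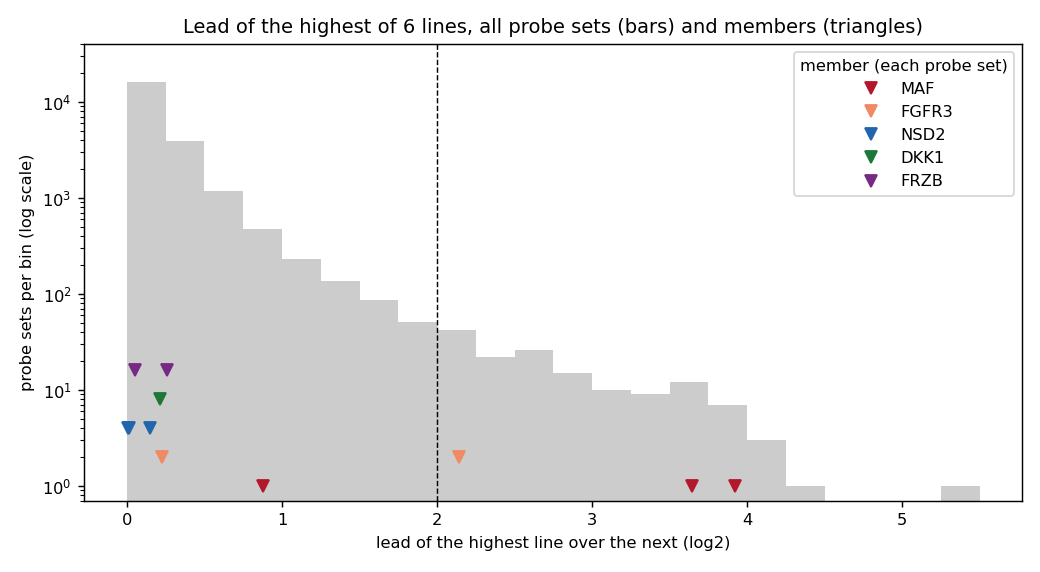
Distribution over all 22215 probe sets of the lead of the highest line over the next (log2, horizontal axis; number of probe sets on a log vertical axis), with the 11 probe sets of the 5 genes marked by triangles whose height has no meaning. The MAF probe sets 206363_at and 209348_s_at and the FGFR3 probe set 204379_s_at lie past the threshold of 2, and the other 8 lie below 1.

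Set as groups, the 3 PCM lines were compared with the 3 B-cell lines, the contrast the study was built on. In limma, fitted on line means with Benjamini-Hochberg adjustment over all probe sets, 0 of 11 passed 0.05, and 2 had an unadjusted p under 0.05. The share called over all probe sets was 2.79%. The authors' deposited table, in which arrays count as replicates, also held no adjusted p under 0.05 for them, with a range of 0.0713 to 0.865. An exact permutation test of 3 lines against 3 cannot go below 0.10. The groups did not overlap at 6 of the 11 probe sets, against 28.2% of all probe sets. This too is a description, since the genes were chosen with earlier results known.

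For MAF, and for FGFR3 at its leading probe set, the PCM mean rested on LP1. MAF (206363_at) averaged 6.61 ± 2.27 (SD, n = 3) in PCM and 5.14 ± 0.02 (SD, n = 3) in B-cell lines, a limma difference of 1.46 (SE 1.10, adjusted p = 0.490). FGFR3 (204379_s_at) averaged 7.05 ± 1.24 against 6.04 ± 0.10 (SD, n = 3 each), a limma difference of 1.0 (SE 0.61, adjusted p = 0.401). With LP1 left out the difference was 0.15 for MAF and 0.28 for FGFR3. At 204380_s_at the FGFR3 difference was 0.35 (SE 0.12, limma adjusted p = 0.210), and 0.26 with LP1 left out.

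NSD2 ran the other way. At 209053_s_at it averaged 9.13 ± 0.67 in PCM and 9.54 ± 0.18 in B-cell lines (SD, n = 3 each), a limma difference of -0.41 (SE 0.34, adjusted p = 0.526), and at 209054_s_at the difference was -0.49 (SE 0.19, limma adjusted p = 0.249). With LP1 left out, L363 and U266 together were lower than the B-cell lines by -0.70 at 209054_s_at (SE 0.08, limma adjusted p = 0.0268), against 2.17% of all probe sets called lower in that fit. With both arrays averaged as 1 line that call was lost, at the same difference (SE 0.11, limma adjusted p = 0.139). With the 2 arrays as 2 lines, the other NSD2 probe sets differed by -0.79 (limma adjusted p = 0.0664) and -0.65 (limma adjusted p = 0.178). DKK1 averaged 5.35 against 5.11, a difference of 0.25 (SE 0.10, limma adjusted p = 0.272), and FRZB (203698_s_at) differed by 0.29 (SE 0.12, limma adjusted p = 0.254).

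The genes that work with these 5 were read as 13 lists, of which 167 of 217 genes were measured, each at its leading probe set. LP1 was set against the mean of the other 5 lines in a limma model with line as a factor, whose error is the spread between duplicate arrays. Among the 167 genes, 22 were higher in LP1 (13.2%) and 9 lower (5.39%), against 6.69% and 6.86% of all 11963 genes. In the group comparison 3 of them were higher in PCM and 4 lower, against 1.35% and 1.95% of all genes. The lists were chosen with earlier results of these data known, so these shares are a description and not evidence of an excess. A gene high in every PCM line can be called in LP1, since 3 of the other 5 lines are B-cell lines. The median difference in LP1 was -0.02 for the lists and -0.03 for all genes. Of the 31 calls, 19 held whichever single B-cell array was left out, and 12 were lost without at least 1 array. Only 4 passed when the error was the spread between lines (CD44, DSG2, TWIST1 and CX3CR1, against 0.635% of all probe sets), so the other calls rest on the array error alone.

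Reported targets of MAF were higher in LP1 than the mean of the other 5 lines at 5 of 7 genes, with a median difference of 1.44. Over all genes the share called higher was 6.69%, and the list was chosen with earlier results of these data known. The 5 include CCND2 and CCR1, which were high in L363 and U266 as well. CX3CR1, a chemokine receptor, stood at 7.57 in LP1 and 5.95 to 6.33 in the other lines, a difference of 1.44 (SE 0.10, limma adjusted p = 0.00111). NOTCH2, a receptor of the Notch family, stood at 10.20 in LP1 against 6.37 to 9.27, a difference of 2.15 (SE 0.11, limma adjusted p = 0.000453). ITGB7, an integrin subunit for adhesion to stroma, stood at 11.47 against 7.62 to 10.54, a difference of 2.33 (SE 0.24, limma adjusted p = 0.00379), and lost its call with L363 and U266 averaged.

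For CCND2 and CCR1, also on that list, the carrier was the PCM group. CCND2, a D-type cyclin of the G1 phase, stood at 11.06 in L363, 11.55 in U266 and 12.00 in LP1, and at 5.39 to 5.46 in the B-cell lines, with a lead of LP1 of 0.46. Its other probe sets put U266 first, 200951_s_at at 10.44 against 9.79 in LP1 and 200952_s_at at 8.87 against 8.81. At the leading probe set CCND2 was higher in PCM by 6.10 (SE 0.24, limma adjusted p = 0.00167), also with any 1 line left out. CCR1, a chemokine receptor, stood at 9.11 in LP1, below L363 (10.00) and U266 (10.12) and above the B-cell lines (6.67 to 6.88). It was higher in PCM by 2.98 (SE 0.28, limma adjusted p = 0.0118), with an adjusted p of up to 0.0618 when L363 or SU-DHL4 was left out. With L363 and U266 averaged, CCND2 (limma adjusted p = 0.0149) and CCR1 (limma adjusted p = 0.0494) kept their calls. The MAF targets NUAK1 and DEPTOR differed in LP1 by 0.36 and 0.44 and were not called.

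Among the other translocation targets, IRF4, a plasma cell transcription factor, stood at 12.69 in LP1 and 11.58 to 12.17 in L363 and U266, against 6.55 to 8.92 in B-cell lines. It was higher in PCM by 4.18 (SE 0.67, limma adjusted p = 0.0425), a call lost without any single line other than SU-DHL4, with an adjusted p of up to 0.157, and also with L363 and U266 averaged (limma adjusted p = 0.117). MYC in LP1 differed by 0.77 (limma adjusted p = 0.227), CCND3 by -0.29 and CCND1 by 0.02. Of 5 measured MAF family members and partners, 1 was called higher in LP1, against 6.69% of all genes. This was BACH1, a repressor that pairs with small MAF proteins, by 1.17 (limma adjusted p = 0.0383, and up to 0.110 without an array of Namalwa or SU-DHL4).

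**Figure D3:**
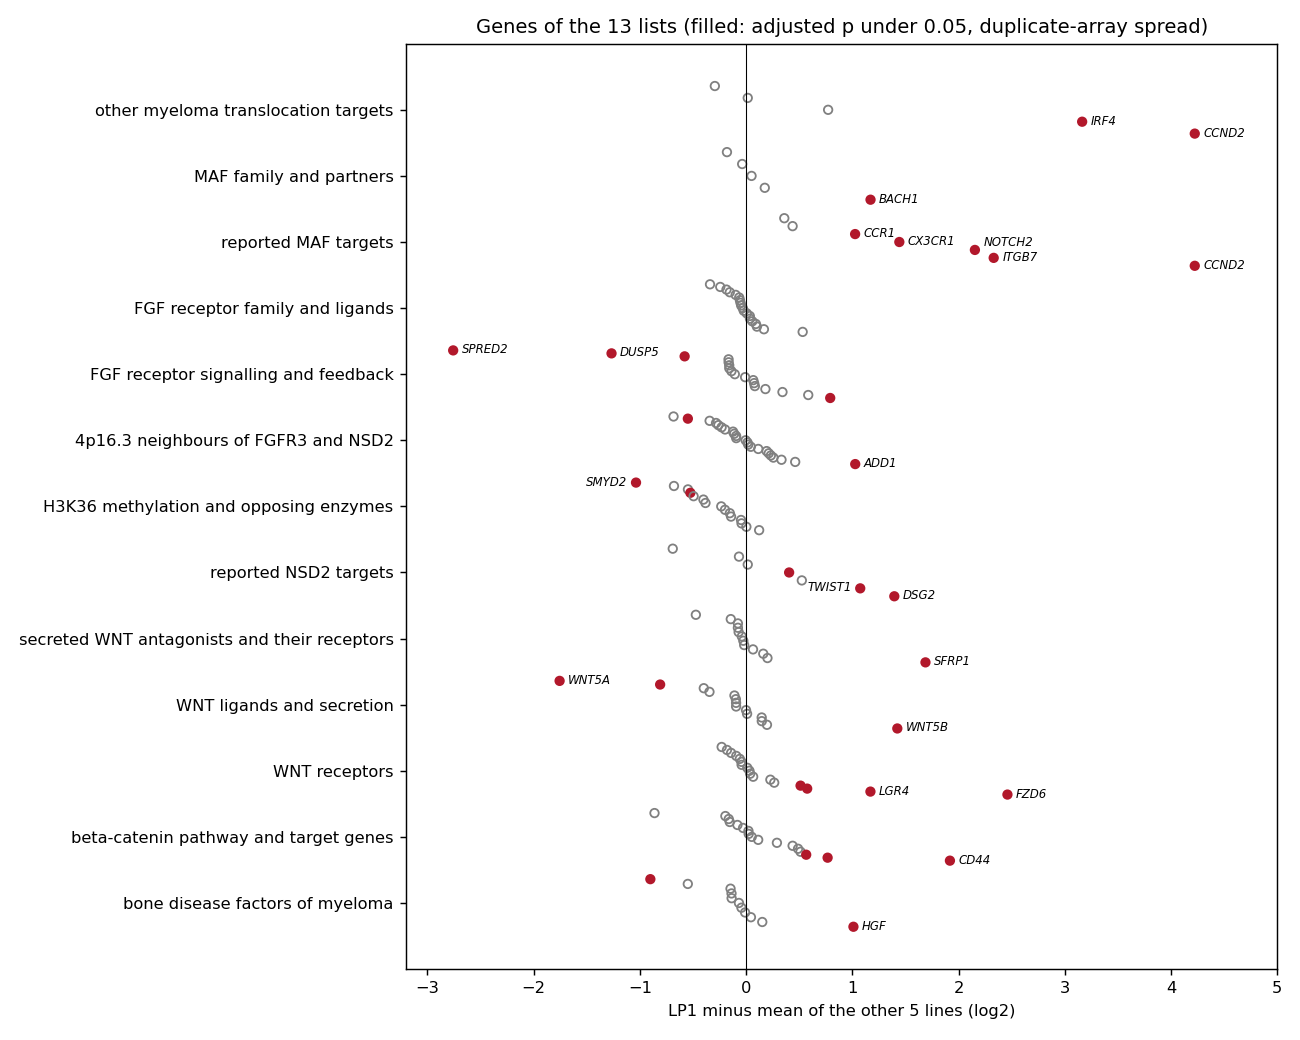
Difference between LP1 and the mean of the other 5 lines (log2, horizontal axis) for each measured gene of the 13 lists (1 list per row, 1 point per gene; filled points were called in limma with an adjusted p under 0.05). The reported MAF targets lie to the right, up to 4.22 for CCND2, which was high in every PCM line. The FGF receptor family and ligands lie between -0.34 and 0.53.

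The FGF receptor family and its ligands gave no call in LP1 at any of 19 measured genes, at differences of -0.34 to 0.53 and a median of -0.03. Of 17 measured genes of receptor signalling and feedback, 1 was higher and 3 were lower. Over all genes, 6.69% were higher in LP1 and 6.86% lower. DUSP5, a phosphatase that switches off ERK, stood at 7.31 in LP1, close to SU-DHL4 (7.24), and at 9.52 in L363 and 10.18 in U266, a difference of -1.27 (SE 0.12, limma adjusted p = 0.00243). SPRED2, an inhibitor of RAS and RAF signalling, stood at 5.25 in LP1 against 7.39 to 8.74 in the other lines, a difference of -2.76 (SE 0.35, limma adjusted p = 0.00701), at 1 of its 3 probe sets. The adaptors SHC1 and GRB2 differed by 0.79 (limma adjusted p = 0.0150) and -0.58 (limma adjusted p = 0.0401). Both calls were lost without 1 array, SHC1 without either Namalwa array (up to 0.0556) and GRB2 without any array except the second of Namalwa (up to 0.101). GRB2 was also lower in PCM than in B-cell lines by -0.83 (SE 0.10, limma adjusted p = 0.0239, up to 0.0942 without Namalwa, SU-DHL4, L363 or U266, and 0.0821 with the last 2 averaged).

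Neighbours of FGFR3 and NSD2 on the short arm of chromosome 4 showed few calls in LP1. In the order of the RefSeq table, TACC3, FGFR3, LETM1 and NSD2 follow one another. LETM1, a mitochondrial ion exchanger, stood at 8.17 in LP1 and 7.79 to 8.12 in the other lines (difference 0.21, limma adjusted p = 0.485), while TACC3, a spindle protein, was lower by -0.68 (limma adjusted p = 0.0528). Of 23 measured neighbours, 1 was higher and 1 lower, against 6.69% and 6.86% of all genes. The median difference was 0.00. ADD1, a cytoskeletal adducin, stood at 9.72 against 8.34 to 9.17, a difference of 1.03 (SE 0.15, limma adjusted p = 0.0109), and was called at all 3 of its probe sets. SLBP, the histone stem-loop binding protein, differed by -0.55 (limma adjusted p = 0.0293, and up to 0.0849 without an array of Namalwa or SU-DHL4). TACC3 was lower in PCM by -0.95 (SE 0.16, limma adjusted p = 0.0460), a call lost without any single line other than U266, with an adjusted p of up to 0.150, and kept with L363 and U266 averaged (limma adjusted p = 0.0350).

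**Figure D4:**
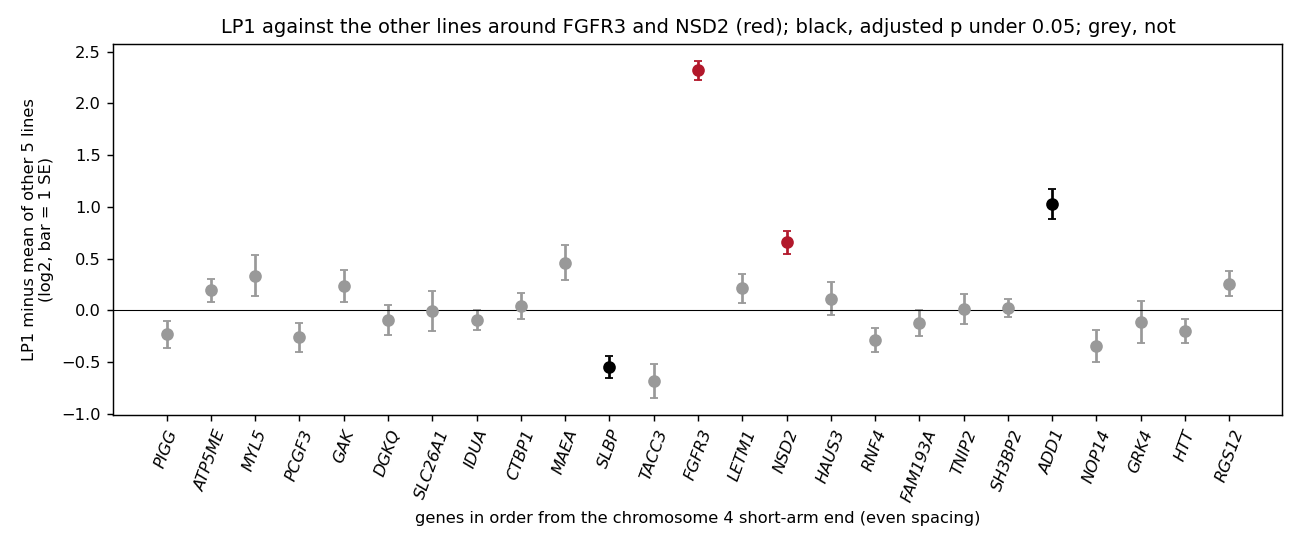
Difference between LP1 and the mean of the other 5 lines (log2, vertical axis, with its standard error from the line model) for FGFR3, NSD2 and 23 measured neighbours, in their order from the end of the short arm (horizontal axis, evenly spaced). Red marks FGFR3 and NSD2, and black marks an adjusted p under 0.05. FGFR3 stands at 2.32, NSD2 at 0.66 and LETM1, between them, at 0.21.

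Among enzymes that act with or against NSD2 on histone H3, 0 of 15 measured genes were higher in LP1 and 2 were lower. Over all genes these shares were 6.69% and 6.86%. The median of the list was -0.23. SMYD2, a lysine methyltransferase, stood at 8.22 in LP1 against 8.83 to 9.61, a difference of -1.04 (SE 0.13, limma adjusted p = 0.00753). It was called at 1 of its 2 probe sets. EZH2, the lysine 27 methyltransferase of Polycomb, differed by -0.52 (limma adjusted p = 0.0408, lost without any array except the first of SU-DHL4, up to 0.109). In the group comparison EZH2 and EED, its partner in the complex, were lower in PCM, by -1.10 (SE 0.19, limma adjusted p = 0.0484) and -1.19 (SE 0.17, limma adjusted p = 0.0339). The EZH2 call was lost without any single line (up to 0.139) and that of EED without any line other than LP1 (up to 0.101). Both were lost with L363 and U266 averaged (limma adjusted p = 0.105 and 0.0963).

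Reported NSD2 targets were higher in LP1 at 3 of 7 measured genes, against 6.69% of all genes. The median of the list was 0.40. DSG2, a desmosomal cadherin, stood at 6.44 in LP1 and 4.96 to 5.13 in the other lines, a difference of 1.39 (SE 0.09, limma adjusted p = 0.000837). TWIST1, a transcription factor, stood at 5.70 against 4.55 to 4.73, a difference of 1.07 (SE 0.13, limma adjusted p = 0.00550). MET, the receptor of hepatocyte growth factor, differed by 0.40 at its leading probe set (limma adjusted p = 0.0461, lost without any array except the second of SU-DHL6, up to 0.112). There MET stood at 8.07 in L363, the highest line, and 8.05 in LP1. RRAS2, a RAS-related GTPase highest in SU-DHL6, differed by -0.69 and BCL2, an inhibitor of cell death, by 0.52, neither called at its leading probe set. RRAS2 was called lower at 2 of its 3 probe sets and BCL2 higher at 1 of its 4. LP1 was the highest line for DSG2 and TWIST1. NSD2 did not separate LP1 from SU-DHL4, and whether its level bears on these genes was not tested.

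Besides DKK1 and FRZB, 12 secreted WNT antagonists or their receptors were measured, and 1 was called higher in LP1, against 6.69% of all genes. SFRP1, a secreted frizzled-related protein like FRZB, stood at 8.37 in LP1 and 6.41 to 7.10 in the other lines, a difference of 1.69 (SE 0.12, limma adjusted p = 0.00120), and was higher at all 3 of its probe sets. The dickkopf receptor KREMEN2 differed by -0.47, WIF1 by 0.20, CER1 by 0.16 and SFRP4 by -0.14, and none of these was called. The median was -0.03.

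On the side of the WNT signal, ligands were called in both directions. Of 14 measured ligands and secretion genes, 1 was higher and 2 were lower in LP1, against 6.69% and 6.86% of all genes. WNT5A was lowest in LP1 (5.37) and highest in L363 (8.68), a difference of -1.76 (SE 0.19, limma adjusted p = 0.00464), a call lost with L363 and U266 averaged. It was called at 1 of its 2 probe sets. WNT5B stood at 8.22 in LP1 against 5.86 to 7.76, a difference of 1.42 (SE 0.10, limma adjusted p = 0.00111). WNT10B differed by -0.81 (limma adjusted p = 0.0327, up to 0.0943 without an array of Namalwa or SU-DHL4).

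Of 17 measured WNT receptors, 4 were higher and 0 lower in LP1, against 6.69% and 6.86% of all genes. The median of the list was 0.03. FZD6, a frizzled receptor, stood at 8.55 in LP1 against 4.83 to 7.31, a difference of 2.46 (SE 0.14, limma adjusted p = 0.000514). FZD2 was higher by 0.57 (limma adjusted p = 0.0131), at 6.05 in LP1 and 5.91 in Namalwa, the next line. LGR4, a receptor for R-spondins, differed by 1.17 (limma adjusted p = 0.0370, up to 0.108 without a SU-DHL4 array) and FZD7 by 0.51 (limma adjusted p = 0.0422, lost without any 1 array, up to 0.106). LGR4 stood at 5.70 in LP1 and 5.30 in Namalwa, and FZD7 at 5.23 in LP1 and 5.00 in L363, the next lines.

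Inside the cell, 3 of 17 measured genes of the beta-catenin pathway and its targets were higher in LP1, against 6.69% of all genes. The median of the list was 0.05. CD44, a hyaluronan receptor and WNT target, stood at 7.89 in LP1 and 5.80 to 6.13 in the other lines, a difference of 1.92 (SE 0.10, limma adjusted p = 0.000427), and was higher at 6 of its 8 probe sets. The corepressor TLE1 differed by 0.77 (limma adjusted p = 0.0180, up to 0.0591 without a Namalwa array), and the transcription factor LEF1 by 0.57 (limma adjusted p = 0.0393, up to 0.0925 without an array of Namalwa or SU-DHL4), with LEF1 highest in Namalwa. LEF1 was called at 1 of its 3 probe sets. CTNNB1, which encodes beta-catenin, differed by -0.86 (limma adjusted p = 0.238) and was not called.

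Of 11 measured factors of myeloma bone disease, 1 was higher and 1 lower in LP1, against 6.69% and 6.86% of all genes. The median of the list was -0.07. HGF, the ligand of MET, stood at 8.94 in LP1 against 7.76 to 8.09, a difference of 1.01 (SE 0.10, limma adjusted p = 0.00313). It was called at all 5 of its probe sets, with differences of 1.75 to 2.88 at the others. The chemokine CCL4 was highest in Namalwa (10.36) and differed in LP1 by -0.90 (limma adjusted p = 0.0242, up to 0.0782 without an array of Namalwa or SU-DHL4). SPP1, or osteopontin, was highest in SU-DHL4 (7.40), the line in which DCN and THY1 were highest. Their part in this was not tested.

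The genes with the profile most like each member were found by the smallest root mean square difference between 6-line profiles, each centred on its own mean. For MAF they were BTBD3 (0.079, Pearson r = 0.999), STEAP1 (0.119, r = 0.998) and RELN (0.141, r = 0.996), and BTBD3 read 8.42 in LP1 against 4.28 to 4.39 in the other lines. For FGFR3 they were CERS6 (0.081, r = 0.996), CFHR4 (0.116, r = 0.991) and PIMREG (0.132, r = 0.999). For NSD2 they were ARIH1 (0.108, r = 0.973), LARP7 (0.116, r = 0.966) and PEA15 (0.118, r = 0.986). For DKK1 they were THYN1, P2RX1 and SNPH, at 0.030 to 0.035, and for FRZB CCNP, ASIC4 and EHD2, at 0.017 to 0.021, where profiles are nearly flat. These correlations describe 6 lines that share their arrays.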

How the data were processed

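RNA of 6 cell lines was hybridized to 9 arrays. Per the labels' design text, RMA was the normalization, and the values the authors deposited are on the log2 scale. No version of RMA is given in the sources used here, nor whether 1 run took in all arrays. The authors' deposited table gives for each probe set a p-value, an adjusted p-value and a log2 difference, which is B-cell minus PCM. Its unadjusted p-values matched limma on 9 arrays as replicates within 5.0e-08. The number of arrays limits the precision, and no detection call comes with these values.

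The 68 control probe sets were left out of 22283, which left 22215. Of these, 19065 had 1 gene symbol in the platform table, 1043 several and 2107 none, and genes were named from the first kind alone. No further normalization was applied. R 4.3.3 and limma 3.58.1 (lmFit and eBayes, two-sided, Benjamini-Hochberg over all probe sets, called under 0.05) gave 2 fits. PCM was set against B-cell on line means (3 against 3, 4 residual degrees of freedom). Each line was set against the mean of the other 5 on 9 arrays with line as a factor (3 residual degrees of freedom). In that fit the error comes from duplicate arrays of B-cell lines, which may be technical, and a lone PCM array is assumed to vary like them. Intervals of differences between lines are 95%, unadjusted. A lead is the highest line minus the next, and a lead of 2 was the threshold. A list gene was read at the probe set whose level averaged over lines was greatest. Values are named for up to 5 genes a list, those with the largest difference in LP1, for every gene called in PCM, and for the 3 genes most like each member. LETM1, NUAK1, DEPTOR and IL6, outside that rule, were named after their values were seen. The scripts were tested on simulated data. The members and lists were chosen with earlier results of these data known. For the 5 genes, single lines are compared by these intervals as a description, with no p-value, and the adjusted p-values of LP1 for list genes are not independent evidence. Promoter sequences are from RefSeq, GRCh38.p14, matched by symbol for 5 of 5 genes. Protein sequences were not used here.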

Additional observations from a re-analysis of the deposited data

How the results depend on the processing

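The alternatives were each array alone of the B-cell lines, a second quantile normalization, 75th percentile centring, another choice of leading probe set, a filter at the median level, robust eBayes, 1 array or line left out, and L363 and U266 averaged, the last chosen after seeing the data. No called difference reversed. The count of the 11 probe sets called between PCM and B-cell lines was 0 throughout, except that it was 1 without LP1 (range 0 to 1), and 0 again when L363 and U266 were then averaged. The count with a lead of at least 2 was 3 under every alternative run. The leads ranged from 3.85 to 4.02 for MAF, 2.06 to 2.21 for FGFR3, 0.10 to 0.34 for NSD2, 0.12 to 0.29 for DKK1 and 0.20 to 0.35 for FRZB. The count of list genes called in LP1 was 31. It was 20 to 34 with 1 B-cell array left out, lowest without the first Namalwa array, 19 above the median level (18 shared), where fewer probe sets are tested, and 4 on line means, where the error is the spread between lines. With L363 and U266 averaged it was 30, of which 26 were among the 31; ITGB7, SLBP, MET, WNT5A and LEF1 were lost. With the array number as a replicate block it was 22, all among the 31. Differences of the second array from the first correlated between lines at -0.44 (Namalwa and SU-DHL4), -0.15 (Namalwa and SU-DHL6) and 0.20 (SU-DHL4 and SU-DHL6). Whether arrays of like number shared their handling was not tested. The leading probe sets of MAF, FGFR3, DKK1 and FRZB fall below the median level, so the filter gives no value for them. Without U266 the PCM difference was 2.11 for MAF and 1.36 for FGFR3, and 2.12 and 1.36 with L363 and U266 averaged. For FRZB, the difference of LP1 from the other lines (0.01) changed sign between settings, from -0.03 to 0.06, and had no settled direction. No detection call was given, so how far DKK1 and FRZB stand above background is unknown. Both lay below the lower quartile on every array.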

Other observations

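The choice of probe set changed the size of some list genes in LP1. These were picked after their values were seen. CD44 at 212063_at read 8.29 in LP1 and 4.05 to 4.60 in the other lines, a lead of 3.69 where the leading probe set gave 1.76. HGF at 210997_at read 7.34 in LP1 and 4.53 to 4.74 in the other lines, a lead of 2.59. MET, its receptor, at 203510_at read 6.49 in LP1 and 4.74 to 5.02 in the other lines, a lead of 1.47 where its leading probe set put L363 first. NOTCH2 at 202445_s_at read 6.22 in LP1 and 5.89 to 6.05 in the other lines, and was not called there, while its other 3 probe sets were. BCL2 at 203685_at read 9.32 in LP1 and 5.41 to 7.91 in the other lines, a difference of 2.63 from their mean (limma adjusted p = 0.00201). RRAS2 differed by -1.12 at 208456_s_at (limma adjusted p = 0.0221) and by -0.60 at 212589_at (limma adjusted p = 0.0173), with SU-DHL6 highest at both.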
